A study of Tetranychus urticae with 5 samples.

Results

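ABCA transporters are membrane proteins of the ATP-binding cassette (ABC) superfamily. A member of this subfamily is a full transporter, with a pair of membrane-spanning domains and a pair of domains that bind and hydrolyse ATP in 1 chain. In mammals the best known members move lipids: ABCA1 passes cholesterol and phospholipid to apolipoproteins, and ABCA3 loads phospholipid into the lamellar bodies of lung cells. No role is given here to any single ABCA gene of the spider mite Tetranychus urticae. The 10 genes described are those whose name on the array carries ABCA in its suffix and does not start with p, namely TuABCA-01 to TuABCA-09 and ABCAinc-02, out of 19601 gene names on the array. Each has 3 probes, 30 of 58803 in all. The files used here hold no probe sequences and no genome positions, so genes are given by the name on the array alone.

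RNA came from whole deutonymph females, the last nymphal stage before the adult, of 3 strains reared on kidney bean at 26 °C. LS-VL is the reference strain and was reared with no spirodiclofen. The 2 resistant strains were kept under spirodiclofen, SR-VP at 5000 mg/L and SR-TK at 1000 mg/L. Spirodiclofen is an acaricide that blocks acetyl-CoA carboxylase, which makes the malonyl-CoA used for fatty acid synthesis. The arrays have 2 colours. Cy5 carried SR-VP on 3 of them and SR-TK on the other 2, Cy3 carried LS-VL on all 5, and an extract came from about 200 mites. The labels speak of biological replicates without stating if each array had its own LS-VL extract, so p-values measure only the spread between these arrays. In extracts of whole mites, fewer cells that make a transcript and less transcript per cell cannot be told apart.

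All 5 arrays came from 1 slide and 1 scan, and no gene spot was saturated. On SR-VP replicate 3, 54.0% of gene spots in Cy5 were well above background, against 72.6% to 75.6% on the others. In Cy3 that array was also the lowest, at 58.9% against 66.8% to 71.2%.

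The first question was how strongly the ABCA genes were detected. Of the 30 probes, 24 were well above background in both channels on every array and 29 passed the filter, which asked for this in either channel on 2 arrays of the same strain. All 10 genes were therefore measured. The level of a gene is the mean normalized log2 signal of its probes in 1 channel, and its percentile is its place among the 15861 genes tested. Probes differ in how brightly they bind, so a percentile orders signals and not transcript numbers. By this measure 8 of 10 genes lay above the middle of all genes in LS-VL, and 4 of these had median percentiles from 88.0 to 92.0.

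The brightest were TuABCA-05, TuABCA-03, TuABCA-04 and TuABCA-09. In LS-VL the level of TuABCA-05 was 11.8 ± 0.34 (SD, n = 5 arrays), at the median the 92.0th percentile. It was 12.1 ± 0.18 in SR-VP (SD, n = 3) and 12.2 and 11.2 on the SR-TK arrays, with 1 SR-TK array below the lowest LS-VL value of 11.4. TuABCA-03 stood at 11.4 ± 0.09 in LS-VL, 11.3 ± 0.08 in SR-VP and 11.8 and 11.3 in SR-TK. The level of TuABCA-04 was 11.2 ± 0.46 in LS-VL, 11.1 ± 0.13 in SR-VP and 10.8 and 11.3 in SR-TK. TuABCA-09 reached 11.3 ± 0.12 in LS-VL, 11.4 ± 0.08 in SR-VP and 11.8 and 11.4 in SR-TK. In each of these 4 genes both resistant strains overlapped the range of LS-VL, and SR-TK replicate 1 lay above that range in TuABCA-03 and TuABCA-09.

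A middle set held TuABCA-02, ABCAinc-02, TuABCA-07 and TuABCA-01, at median LS-VL percentiles of 76.3, 71.0, 72.0 and 57.7. Their LS-VL levels were 10.05 ± 0.30, 9.80 ± 0.18, 9.77 ± 0.05 and 8.88 ± 0.16 (SD, n = 5), in that order. The dimmest were TuABCA-06, at 7.80 ± 0.10 in LS-VL and the 38.7th percentile, and TuABCA-08, at 6.97 ± 0.20 and the 23.6th. None of the probes of TuABCA-08 was well above background in Cy5 on SR-VP replicate 3, so its level there is a bound from above. Probe 579 of TuABCA-06 missed that mark on SR-VP replicate 3 and SR-TK replicate 2, in both channels.

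**Figure D1:**
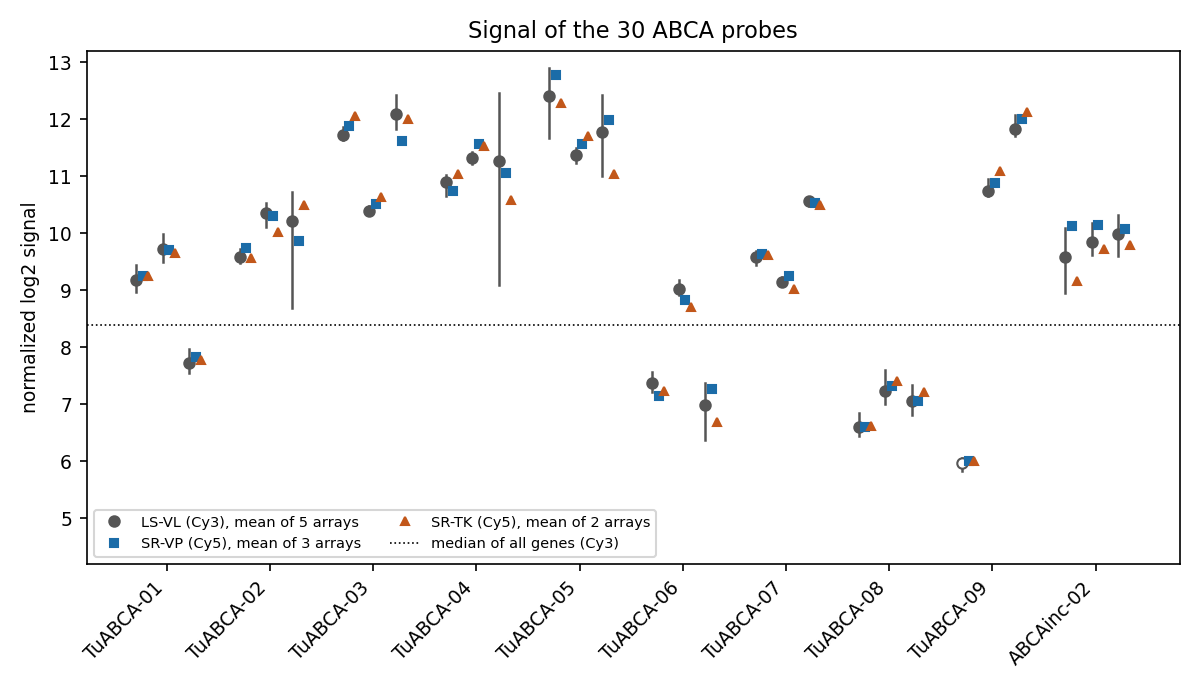
Normalized log2 signal (vertical axis) of the 30 ABCA probes, grouped by gene. Circles are LS-VL means over 5 arrays with lines from the lowest to the highest array, squares are SR-VP means over 3 arrays, triangles are SR-TK means over 2 arrays, the open circle is the probe that was dropped and the dotted line is the median of all genes in Cy3. The third probe of TuABCA-04 ranged from 9.09 to 12.5 in LS-VL, and the first probe of TuABCA-09 stayed near 6.

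Probes of 1 gene differed widely in brightness, as the plot of the 30 probes shows. Probes 587 and 588 of TuABCA-09 had mean LS-VL signals of 10.7 and 11.8, while probe 586 of that gene stood at 5.98 and was not well above background in either channel on any array. That probe was left out. With it included, TuABCA-09 fell from a level of 11.3 to 9.52, so its place among the brightest genes rests on 2 probes. Probe 573 of TuABCA-04 ranged from 9.09 to 12.5 over arrays in LS-VL and from 9.27 to 11.9 in Cy5. Its log2 ratios spanned only −0.65 to 0.18, since both channels moved together.

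The next question was whether any ABCA gene differed in level between a resistant strain and LS-VL. None of the 10 did by the test. The statistic is the log2 ratio of Cy5 over Cy3, fitted with limma over all 15861 genes, with Benjamini-Hochberg adjustment, and ± beside it is limma's standard error (SE). In SR-VP 0 of 10 genes had an adjusted p under 0.05, a mark that 11.3% of all genes tested passed. An unadjusted p under 0.05 was found in 0 ABCA genes, against 4264 of all 15861 genes. So 0 were called, meaning an absolute log2 ratio of at least 1 as well, against 1.95% of all genes. In SR-TK 0 of 10 had an adjusted p under 0.05, against 8.34% of all genes. The unadjusted p was under 0.05 in 1 ABCA gene, against 3995 of all 15861 genes. Again 0 were called, against 2.28%. The plain name Tetur11g06080, with the same number as TuABCA-03, is not among the 10. Its log2 ratios were −2.10 in SR-VP and −2.23 in SR-TK, and whether both name the same gene was not settled.

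The ABCA ratios in SR-VP were small on single arrays too. TuABCA-09 had log2 ratios of 0.13, 0.19 and 0.30 on the 3 SR-VP arrays, all above 0, with a fitted value of 0.21 ± 0.13 (limma, adjusted p = 0.367). ABCAinc-02 lay at −0.02, 0.30 and 0.39, with a fitted value of 0.22 ± 0.30 (limma, adjusted p = 0.683), the highest of the 10 genes. TuABCA-04 was below 0 on all 3 arrays, at −0.09, −0.17 and −0.15, with a fitted value of −0.14 ± 0.12 (limma, adjusted p = 0.514), the lowest of the 10. So the fitted values of the whole subfamily lay between −0.14 and 0.22 in SR-VP, at most 1.17-fold either way. Single arrays ran wider, from −0.24 in TuABCA-01 to 0.39 in ABCAinc-02.

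TuABCA-06 lay at −0.07, −0.13 and −0.0056 in SR-VP, the only other gene with 1 direction on all 3 arrays. The 3 genes with 1 direction are 30% of the subfamily, against 50.1% of all genes. TuABCA-03 gave −0.07, −0.08 and 0.04. TuABCA-05 gave 0.05, −0.00084 and 0.09. Both stayed within 0.1 of 0 on every SR-VP array. TuABCA-01 was at 0.18, 0.19 and −0.24, and TuABCA-02 at 0.11, 0.05 and −0.12. TuABCA-07 was at 0.15, 0.05 and −0.12, and TuABCA-08 at 0.02, 0.20 and −0.18. In these 4 genes replicate 3 was below 0 and the other 2 arrays above it. The median absolute log2 ratio of the 10 genes in SR-VP was 0.05, beside 0.12 over all genes tested. Their median SE was 0.11, against 0.08 over all genes, but this SE also takes in the gaps between the SR-TK arrays. The SD over the SR-VP arrays alone had a median of 0.10 in the ABCA genes and 0.13 in all genes.

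**Figure D2:**
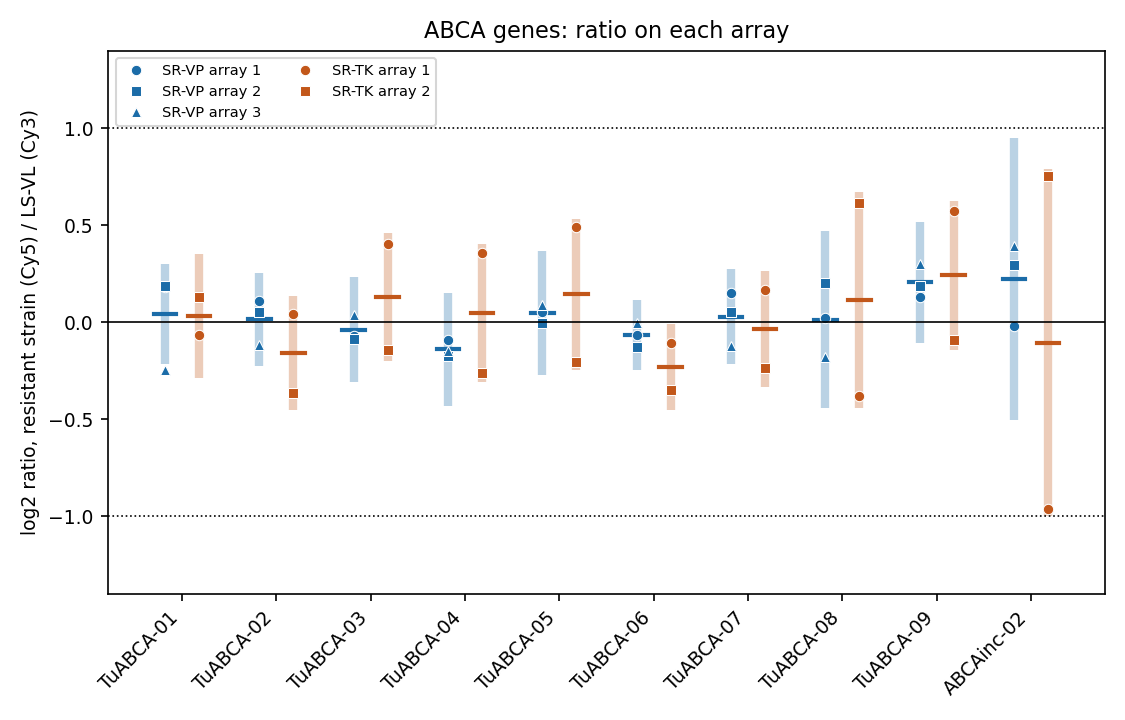
Log2 ratio of resistant strain (Cy5) over LS-VL (Cy3) on the vertical axis for each ABCA gene and array. Points are single arrays, short bars are fitted means, shaded bars are 95% intervals from limma, and dotted lines mark a log2 ratio of 1 either way. All intervals lie within the dotted lines, and the SR-TK arrays fall on opposite sides of 0 in 9 of 10 genes.

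In SR-TK the fitted log2 ratios ran from −0.23 to 0.24. TuABCA-06 was the lowest. It lay at −0.11 and −0.35, with a fitted value of −0.23 ± 0.09 (limma, unadjusted p = 0.0451, adjusted p = 0.188), and was the only ABCA gene with both SR-TK arrays on 1 side of 0. This is 1.17-fold lower than LS-VL. Its probes 577 and 579 were not well above background on some arrays, and with probe 578 alone, the one that was so throughout, the value was −0.40 in SR-TK (limma, adjusted p = 0.101) and −0.12 in SR-VP. TuABCA-09 was the highest at 0.24 ± 0.16 (limma, adjusted p = 0.394), from arrays at 0.57 and −0.09, and stood at 0.15 with its dim probe 586 included.

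The SR-TK arrays disagreed with each other more on the ABCA genes than on most genes. They fell on opposite sides of 0 in 9 of the 10 genes, against 31.9% of all genes. The absolute difference between both arrays had a median of 0.58 over the 10 genes and of 0.15 over all genes, and in 6 ABCA genes it was beyond the 90th percentile of all genes. The SR-VP arrays showed no such excess, with a median SD of 0.10 in the ABCA genes and 0.13 in all genes.

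ABCAinc-02 had the widest gap, −0.96 on SR-TK replicate 1 and 0.75 on replicate 2, at the 99.3rd percentile of all genes. All 3 of its probes showed it, at −0.96, −0.87 and −1.06 on the first array and 0.79, 0.76 and 0.71 on the second. The gap lay in the resistant strain's channel: the Cy5 level was 8.69 on replicate 1 and 10.4 on replicate 2, while LS-VL was at 9.66 and 9.68. TuABCA-08 differed in the same direction, at −0.38 and 0.61, with Cy5 levels of 6.70 and 7.45 and LS-VL levels of 7.08 and 6.84. The fitted mean of ABCAinc-02 in SR-TK, −0.10 ± 0.37, describes neither array. Without SR-TK replicate 2 it rests on 1 array and had an adjusted p of 0.0435 (limma), when 4.38% of all genes tested passed. The spread in that fit comes from the SR-VP arrays alone, so the lone SR-TK array is assumed to vary as they do, which the gap between both SR-TK arrays does not bear out for this gene.

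The 4 bright genes differed between the SR-TK arrays in the opposite direction. TuABCA-05 lay at 0.49 and −0.20, TuABCA-03 at 0.41 and −0.14, and TuABCA-04 at 0.36 and −0.26. Like that of TuABCA-09, each of these ratios was higher on replicate 1. TuABCA-02 (0.05 and −0.36) and TuABCA-07 (0.17 and −0.24) had smaller gaps in that direction, and TuABCA-01 (−0.06 and 0.13) a small one the other way. In TuABCA-05 the Cy5 level was 12.2 and 11.2 and that of LS-VL 11.7 and 11.4, so both channels were higher on replicate 1. TuABCA-04 was lower on replicate 1 in both channels, at 10.8 and 11.3 in Cy5 and 10.4 and 11.6 in LS-VL, so its higher ratio there goes with the larger gap in LS-VL. In TuABCA-03 the gap was in Cy5, at 11.8 and 11.3, with LS-VL at 11.4 on both arrays. What separates the SR-TK arrays was not tested.

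Under this fit, which pools the spread of both strains, the intervals set how large a change could have gone unnoticed. In both strains the 95% intervals of all 10 genes lay within a log2 ratio of 1 either way. So did those of most genes, 15050 of 15861 in SR-VP and 14703 in SR-TK. Among the 10 genes the widest in SR-VP was that of ABCAinc-02, −0.51 to 0.95, and that of TuABCA-06 was the narrowest, −0.25 to 0.12. In SR-TK the interval of ABCAinc-02 ran from −0.997 to 0.79, almost to the limit. Its SR-TK arrays lay at −0.96 and 0.75, so this interval does not bound a change in SR-TK for that gene. Changes within these intervals remain possible. The absolute difference between the SR-TK arrays had a median of 0.58 in the ABCA genes, while the SD over the SR-VP arrays had one of 0.10. With the spread pooled, the SR-TK intervals may be too narrow, so larger changes in SR-TK cannot be set aside.

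The scaling bears on the SR-TK result. With each array centred on its median in place of loess, 4 ABCA genes had an adjusted p under 0.05 in SR-TK, as did 38.6% of all genes tested. These 4 were TuABCA-09 (0.81), TuABCA-05 (0.72), TuABCA-03 (0.70) and TuABCA-04 (0.58), the 4 brightest, and none reached a log2 ratio of 1. That scaling also moved the median of all genes to 0.22 in SR-TK, and the ABCA median from 0.04 to 0.38. In SR-VP it moved the ABCA median from 0.02 to 0.26 and that of all genes to 0.12, with 0 of 10 genes past an adjusted p of 0.05. The sign turned with it in 4 genes in each strain. In SR-VP TuABCA-03 moved to 0.25, TuABCA-04 to 0.15, TuABCA-06 to 0.04 and TuABCA-08 to −0.00092. In SR-TK TuABCA-02 and ABCAinc-02 both moved to 0.32, TuABCA-07 to 0.41 and TuABCA-08 to −0.02, while TuABCA-06 stayed below 0 at −0.19.

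SR-TK and SR-VP were then compared with each other. None of the 10 genes had an adjusted p under 0.05 (limma), which 0.252% of all genes did, and none was called, against 0.214%. None had an unadjusted p under 0.05 (limma), against 1446 of all 15861 genes. The log2 difference, SR-TK minus SR-VP, ran from −0.33 ± 0.47 for ABCAinc-02 to 0.18 ± 0.19 for TuABCA-04. In all 10 genes the SR-VP and SR-TK arrays overlapped. The share over all genes was not counted, so whether this overlap is particular to the ABCA genes cannot be said. The interval of ABCAinc-02 reached from −1.48 to 0.83, so a difference beyond 1 cannot be set aside for that gene. The other 9 intervals lay within 1 either way, as did those of 14812 of all 15861 genes. They rest on the same shared estimate of the spread. Both strains were measured against LS-VL, so their ratios share a control.

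How well the probes of a gene agreed was examined next. In SR-VP the probes of TuABCA-03 split. Probes 568 and 569 lay between 0.10 and 0.32 on the 3 arrays, while probe 570 lay at −0.45, −0.58 and −0.43. Its mean of −0.49 ± 0.13 (limma on single probes, adjusted p = 0.0603) was the closest to the threshold of all ABCA probes. TuABCA-04 did likewise, with probe 572 at 0.22, 0.18 and 0.23 and probe 573 at −0.47, −0.65 and −0.48 (limma on single probes, adjusted p = 0.0672). Probe 571 lay between them. In TuABCA-05 probe 576 was below 0 on all 3 SR-VP arrays and the other 2 probes above it.

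The gap between the highest and lowest probe mean in SR-VP was 0.69 in TuABCA-03 and 0.74 in TuABCA-04, at the 94.6th and 95.5th percentile of 13497 genes with 3 probes. So the values near 0 of these genes average probes of opposite sign that were steady over arrays. The SE over arrays does not show this. With single probes tested, 0 of 29 ABCA probes had an adjusted p under 0.05 in SR-VP, against 10.8% of all probes. None had one in SR-TK either, against 7.93%, or in the difference of the strains, against 0.413%. This test of single probes was chosen after seeing the data.

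**Figure D3:**
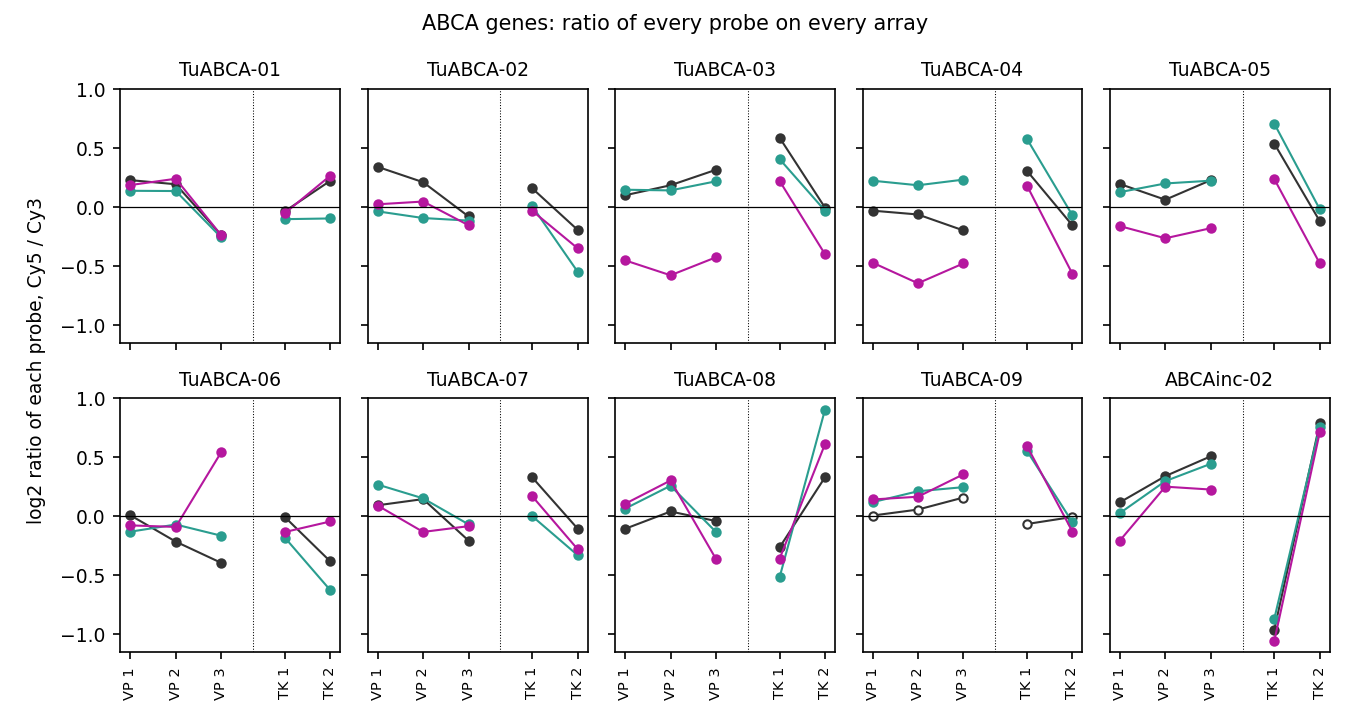
Log2 ratio of Cy5 over Cy3 (vertical axis) for each probe on each array, 1 panel per gene. Each colour is 1 probe, in the order of probe numbers dark grey, green and magenta, open circles are the dropped probe of TuABCA-09, and lines only link points of 1 probe within a strain. The third probes of TuABCA-03 and TuABCA-04 lie below 0 on all SR-VP arrays while another probe of the gene lies above it, and the probes of ABCAinc-02 move together.

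Other genes had closer probes. The 3 probes of TuABCA-01 spanned 0.06 in SR-VP, and both kept probes of TuABCA-09 differed by 0.03 there and by 0.02 in SR-TK. Among the 9 ABCA genes with 3 kept probes, all probe means had 1 sign in 2 genes in SR-VP and in 4 in SR-TK. Over all such genes these shares were 61.1% and 65.0%. These counts are a description, with no test. They also depend on how near to 0 a gene lies, and the median absolute log2 ratio in SR-VP was 0.05 in ABCA against 0.12 in all genes. The gap between the highest and lowest probe mean had a median of 0.24 in SR-VP, against 0.17 over all such genes. In SR-TK it was 0.28 against 0.18. In TuABCA-06, probe 579 was at 0.54 on SR-VP replicate 3, where it was not well above background, and its other probes were below 0 there.

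The ABCA genes were set beside the other ABC subfamilies as named on the array. These export many kinds of substrate (ABCB, ABCC, ABCG), serve peroxisomes (ABCD) or act in translation (ABCE, ABCF), and no ABCH name was found. Of 68 such genes tested, 4 were higher and 2 lower in SR-VP by the adjusted p, all 6 of them in ABCC, and 2 were higher in SR-TK, also in ABCC. Over all genes tested that mark was passed by 11.3% in SR-VP and 8.34% in SR-TK. None of the 68 was called in either strain. ABCC ran from −0.81 to 0.69 in SR-VP, a wider range than the −0.14 to 0.22 of ABCA, though it holds 41 genes tested. ABCG, with 18 genes, ran from −0.26 to 0.45. The medians were near 0 in all 3, at 0.02 for ABCA, 0.04 for ABCC and 0.05 for ABCG. Whether the subfamilies differ was not tested. Acetyl-CoA carboxylase, the target of spirodiclofen, stood at 0.37 ± 0.11 in SR-VP (limma, adjusted p = 0.0887). In SR-TK it stood at 0.43 ± 0.14 (limma, adjusted p = 0.116).

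**Figure D4:**
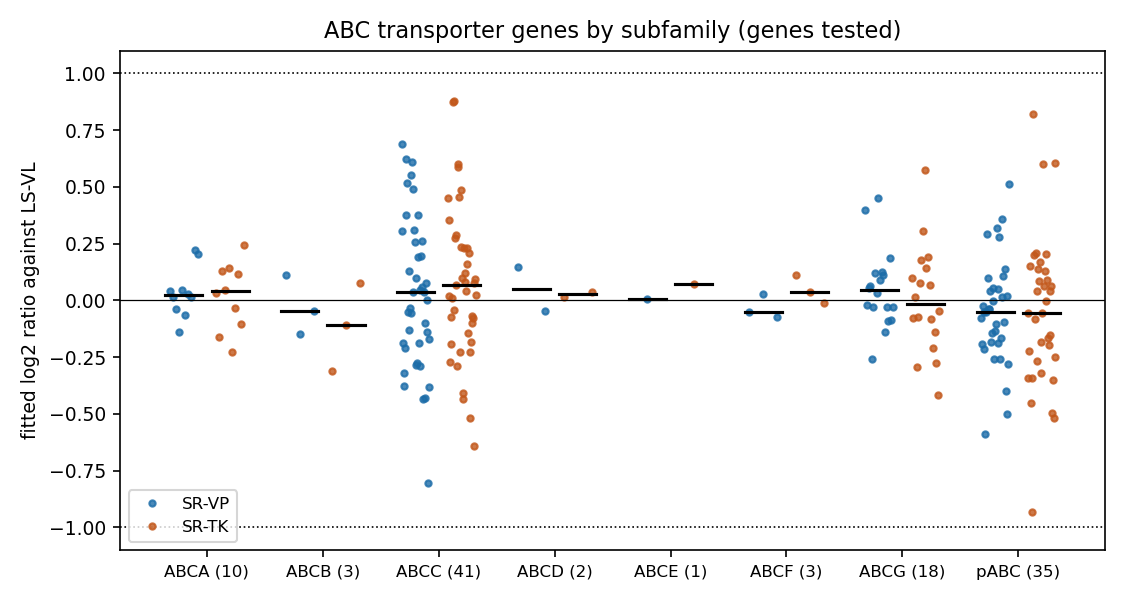
Fitted log2 ratio against LS-VL (vertical axis) of ABC transporter genes tested, by subfamily with the number of genes in brackets. Points are genes, black bars are medians, dotted lines mark a log2 ratio of 1 either way, and pABC holds the names starting with p. No gene lies beyond the dotted lines, and ABCA lies between −0.23 and 0.24 in both strains.

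The gene with the lowest adjusted p was TuABCA-06, in SR-TK. Among the other 364 names with a suffix, the one nearest to it over the 5 log2 ratios was named chitin on the array, at a Euclidean distance of 0.14, followed by Cytc1 and pABC-18, both at 0.21. With 5 arrays and ratios near 0, such distances describe these arrays only.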

How the data were processed

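The deposited files give, per the file headers, a median intensity for every spot and for its surroundings in both channels, and intensities already corrected for background and dye. The submitters' processing notes name Agilent Feature Extraction 10.5. Here median intensities were background-corrected (normexp, offset 50), then normalized by loess within each array (weight 0 for controls) and by Aquantile between arrays. The tools were limma 3.58.1 and R 4.3.3. In all, 874 spot values with outlier flags were left out. The filter on dim probes kept 44268 of 58803, and probes of a gene were averaged. limma fitted 1 coefficient per strain over 5 arrays (3 residual and 3.07 prior degrees of freedom), and 2 of the 3 residual degrees come from SR-VP. LS-VL was always in Cy3, so a dye bias of a gene cannot be told apart from a strain effect. Every ABCA gene is named by rule, with acetyl-CoA carboxylase and the 3 names nearest to the ABCA gene of lowest adjusted p. The members and lists were chosen with earlier results of these data known. The authors' lists of fold changes were not used here, since their gene numbers are not tied to these names.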

Additional observations from a re-analysis of the deposited data

Results flagged for a closer look

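In LS-VL, the Cy3 level of TuABCA-09 was 11.5 on SR-TK replicate 2, apart from 11.2 to 11.3 on the other 4 arrays. The gap to the nearest array was 0.752 of the whole range, past Dixon's 95% critical value for 5 samples. Such a gap was looked for in each of the 10 ABCA genes. For a single gene chance gives it about 1 time in 20, so a search over 10 genes finds one more often. The log2 ratio of TuABCA-09 on that array was −0.09, against 0.13 to 0.57 on the other 4.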

How the results depend on the processing

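No ABCA gene was called under any alternative run, in either strain or in their difference. The number with an adjusted p under 0.05 in SR-TK rose from 0 to 4 with median centring, where the ABCA medians were 0.26 in SR-VP and 0.38 in SR-TK. Leaving out 1 array at a time gave 0 to 1 such genes in SR-TK (the 1 without SR-TK replicate 2), an ABCA median from −0.0256 to 0.0924 in SR-VP, highest without SR-VP replicate 3, and from −0.17 to 0.11 in SR-TK, lowest without SR-TK replicate 1. The other alternatives, an offset of 10, no background correction, processed signals, no Aquantile (which leaves ratios as they are), no filter on dim probes, only probes bright everywhere, the median of probes and only a strain's own arrays, gave 0 such genes. TuABCA-08 had no probe bright everywhere. Of the fitted ratios outside the leave-one-out runs, 9 of 99 in SR-VP and 6 of 99 in SR-TK had the other sign, none of them past the threshold. Many of these could not turn. A strain's own arrays alone give the same ratios, as does a replicate block in SR-VP, and dropping the filter changes TuABCA-09 only. In the leave-one-out runs, also those without an array of the other strain, 6 of 50 in SR-VP and 9 of 50 in SR-TK had the other sign. Replicate numbers are shared between the strains, but the labels do not say that they pair arrays. Deviations of equal numbers correlated across genes by 0.37 and 0.16. The deviations of both SR-TK arrays from their mean are equal and opposite, and unequal numbers were not compared. These values therefore cannot decide whether numbers pair arrays. With a replicate block, 0 ABCA genes passed in any comparison, the SR-TK median was 0.00063, and the count of all genes called in the difference went from 34 to 2. Mean foreground signals were not run, since the columns read here hold medians. Depth on an array means signal over background, which limits TuABCA-08 and TuABCA-06.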

Other observations

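The array holds 9 of the 10 ABCA numbers a second time, as a plain name with no suffix, and 7 of these passed the filter. The plain name Tetur11g06080 had log2 ratios of −2.10 in SR-VP and −2.23 in SR-TK, while TuABCA-03, with the same number in its name, was at −0.04 and 0.13. Tetur11g06100 was at −0.01 and −0.44, beside −0.14 and 0.05 in TuABCA-04. Tetur01g00660 was at 0.23 and 0.31, beside 0.04 and 0.03 in TuABCA-01, and Tetur11g06270 at −0.24 and −0.25, beside 0.05 and 0.14 in TuABCA-05. Tetur15g02290 was at −0.07 and 0.10, beside −0.07 and −0.23 in TuABCA-06. Tetur25g01900 was at −0.04 and 0.29, beside 0.03 and −0.04 in TuABCA-07. Tetur27g02210 was at 0.09 and −0.06, beside 0.22 and −0.10 in ABCAinc-02. Of the 7 pairs, only Tetur11g06080 and TuABCA-03 lay more than 1 apart. Whether equal numbers name the same gene was not settled here.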
